A study of Mus musculus with 9 samples.

Results

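The 10 genes described here concern pericytes and vascular smooth muscle cells. These cells are usually recognised by Pdgfrb, Rgs5, Cspg4, Acta2, Tagln, Des, Kcnj8, Abcc9 and Notch3. The remaining gene, Pdgfb, encodes a ligand that endothelial cells make for them and is not a marker of these cells. They were chosen by symbol from a table of 48587 genes, and all 10 passed the filter on low counts in every comparison. RNA was sequenced from retinas of C57BL/6J mice aged 12 weeks, in 9 samples that were each a pool of 6 retinas from 6 mice. In RVO eyes (retinal vein occlusion, n = 3 pools), all large veins were occluded by laser after injection of eosin Y, a dye that enhances the laser effect. Control eyes (n = 3) were the other eyes of these mice and received as many laser spots between the large vessels, and both groups were taken at d2. Untreated eyes (n = 3) came from mice without laser treatment. Control eyes are therefore lasered eyes of mice that carried the dye and an occluded fellow eye, and not unperturbed retinas.

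Pericytes and smooth muscle cells, together called mural cells, wrap capillaries and larger vessels. Endothelial cells secrete PDGF-B, which binds the receptor PDGFRB on pericytes and keeps them attached to the vessel, and loss of this signal leaves retinal capillaries without pericytes. The receptor NOTCH3 maintains smooth muscle cells of arteries, KCNJ8 and ABCC9 together form the ATP-sensitive potassium channel of mural cells, and ACTA2, TAGLN and DES belong to the contractile cytoskeleton. Smooth muscle actin is abundant around arteries and normally low in retinal capillary pericytes, and it also appears in fibroblasts that turn contractile in wounds.

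Total counts were 12377572 to 15245869 in untreated, 18897218 to 23419497 in control and 21022997 to 28993921 in RVO samples, so genes of low expression were measured least precisely in untreated eyes. Levels are in CPM, counts scaled to 1000000 per sample with edgeR's TMM factors, and in CPM per kilobase of exon where genes are compared with each other. RVO replicate 2 stood apart from the other RVO samples over the whole table. Chi-square per degree of freedom was 54.1 between RVO replicates 1 and 2, 29.3 between 2 and 3 and 9.01 between 1 and 3. Within the RVO group, 8 of the 10 genes were highest in RVO replicate 2. In 8 of the 10, RVO replicate 1 was the lowest. The shares of all genes with these extremes were not counted. Lens RNA also differed between pools. The summed level of 10 lens markers was 1.86 to 9.92 CPM in untreated samples, 1299, 263 and 105 CPM in control replicates 1, 2 and 3, and 87.4, 3206 and 338 CPM in RVO replicates 1, 2 and 3. Values without RVO replicate 2, and for several genes also without RVO replicate 3, are given beside the results. In pooled tissue, fewer mural cells and less RNA per mural cell cannot be told apart, nor can mural cells and other cells that express the same gene.

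Against untreated eyes, RVO eyes had more RNA of the contractile genes Acta2 and Tagln and less of the pericyte regulator Rgs5 and the channel subunit Abcc9. Acta2 was 8.03-fold and Tagln 3.93-fold higher, the ligand Pdgfb was 2.18-fold higher, Rgs5 was 1.99-fold lower and Abcc9 4.02-fold lower. In all, 3 of 10 genes rose and 2 fell by the quasi-likelihood test of edgeR, with p-values adjusted after Benjamini and Hochberg over 16380 genes and a threshold of 0.01, where 27.4% of all genes tested rose and 24.6% fell. The 3 samples of one group did not overlap those of the other for 6 of 10 genes, and for 73.4% of all genes tested. The median log2 fold change of the 10 genes was 0.70 and that of all genes 0.01. Once trends of GC content and transcript length were removed, Pdgfb and Rgs5 no longer passed.

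In control eyes, genes of the PDGF pair, of surface markers and of the cytoskeleton were higher than in untreated eyes. Pdgfrb, Pdgfb, Cspg4, Acta2, Des and Notch3 rose, so that 6 of 10 were higher and 0 lower, against 27.2% higher and 25.2% lower of 16066 genes tested. Of the 10 genes, 8 had an unadjusted p under 0.05, as had 67.6% of all genes, and 0 of these 8 were lower. DESeq2 called the 6 genes too, 0 lower ones, and 49.4% of all genes. Samples of both groups were apart for 8 of 10 genes and for 70.0% of all genes. The median log2 fold change was 0.88, and 0.01 over all genes. Pdgfrb, Pdgfb, Cspg4 and Des did not pass with GC and length trends removed, nor did Pdgfrb, Acta2 and Des in a fit of all 9 samples. Both comparisons used the same untreated samples, so their values are given side by side and their overlap is not a result.

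RVO and control eyes differed in occlusion and also in where the laser was aimed, at large veins or between large vessels. These differences cannot be told apart here. Between these groups, 0 of 10 genes passed the threshold of 0.01 in edgeR's test, where 3.34% of 16874 genes did. An unadjusted p under 0.05 was found for 6 of them and 47.1% of all genes, and DESeq2's Wald test called 6 of them and 24.4% of all genes at 0.01. When the threshold was 0.05, Acta2 and Tagln were higher (2 of 10, against 17.5% of all genes) and Pdgfrb, Rgs5, Kcnj8 and Abcc9 lower (4 of 10, against 17.1%). Samples of both groups were apart for 6 of 10 genes and for 52.5% of all genes. The median log2 fold change was -0.55, and 0.02 over all genes. Without RVO replicate 2, 7 of the 10 genes passed 0.01, as did 36.4% of all genes tested: the 6 named and Notch3. Without RVO replicate 3, control replicate 1, control replicate 2 or control replicate 3, 0, 1, 2 and 0 genes passed 0.05, and without RVO replicate 1 all 6 did. The share of all genes that passed 0.05 was not counted for these fits, so the counts cannot be set against it. At 0.01 each of these fits called 0 of the 10 genes. Of all genes tested they called 0%, 0.0058%, 0%, 0% and 0.169% at 0.01, in the same order.

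The promoters of Acta2, which rose in RVO eyes, of Rgs5 and Abcc9, which fell, and of Kcnj8, the neighbour of Abcc9, are shown for comparison, as 300 bases from 250 before the annotated start to 50 after it, read 5′ to 3′ on the strand of the gene (RefSeq, GRCm38.p6). Windows of 7 of the 10 genes were searched, and Pdgfrb, Pdgfb and Tagln were not among them. Capitals mark motifs found on either strand: the CArG box, the site of serum response factor in contractile genes, a CArG-like form with a single C or G in its A and T core, and TGGGAA, the core of sites of RBPJ, through which Notch receptors act. Acta2 lies at chr19:34255324-34255623 (minus strand), Rgs5 at chr1:169655251-169655550 (plus strand), Kcnj8 at chr6:142571565-142571864 and Abcc9 at chr6:142702225-142702524 (both minus strand).
Acta2: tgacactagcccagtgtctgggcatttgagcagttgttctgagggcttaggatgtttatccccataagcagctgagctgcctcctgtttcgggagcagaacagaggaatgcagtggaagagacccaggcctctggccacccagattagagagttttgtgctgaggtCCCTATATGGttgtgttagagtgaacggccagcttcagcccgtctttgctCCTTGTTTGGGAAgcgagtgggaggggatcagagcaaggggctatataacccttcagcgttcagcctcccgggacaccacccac
Rgs5: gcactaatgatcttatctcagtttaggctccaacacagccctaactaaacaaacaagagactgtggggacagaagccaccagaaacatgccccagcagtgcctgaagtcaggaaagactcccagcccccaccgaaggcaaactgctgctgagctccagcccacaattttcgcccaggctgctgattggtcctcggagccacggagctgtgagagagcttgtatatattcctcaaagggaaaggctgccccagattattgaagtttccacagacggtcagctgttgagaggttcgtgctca
Kcnj8: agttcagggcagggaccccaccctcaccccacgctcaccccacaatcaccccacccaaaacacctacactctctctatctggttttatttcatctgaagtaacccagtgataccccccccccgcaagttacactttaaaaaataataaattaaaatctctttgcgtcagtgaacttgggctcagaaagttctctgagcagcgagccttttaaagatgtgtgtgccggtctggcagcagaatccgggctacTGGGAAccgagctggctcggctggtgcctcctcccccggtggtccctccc
Abcc9: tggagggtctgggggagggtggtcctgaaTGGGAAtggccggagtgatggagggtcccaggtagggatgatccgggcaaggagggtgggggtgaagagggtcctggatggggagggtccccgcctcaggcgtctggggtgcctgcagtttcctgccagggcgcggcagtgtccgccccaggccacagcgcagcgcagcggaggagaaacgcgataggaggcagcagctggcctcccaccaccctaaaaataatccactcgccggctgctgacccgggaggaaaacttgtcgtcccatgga
The strict CArG box was in 0 of the 7 windows and in 1.63% of 32851 promoter windows of the same length. Acta2 held 2 CArG-like matches, 84 and 34 bases before the start, where 8.5% of windows hold at least 1. TGGGAA, which 25.6% of windows hold, was in the windows of Acta2, Kcnj8 and Abcc9, and in Acta2 it overlaps the CArG-like match nearer to the start. The windows of Rgs5, Cspg4, Des and Notch3 held none of the 3 motifs. A match describes the letters only, and binding of either factor was not measured.

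**Figure D1:**
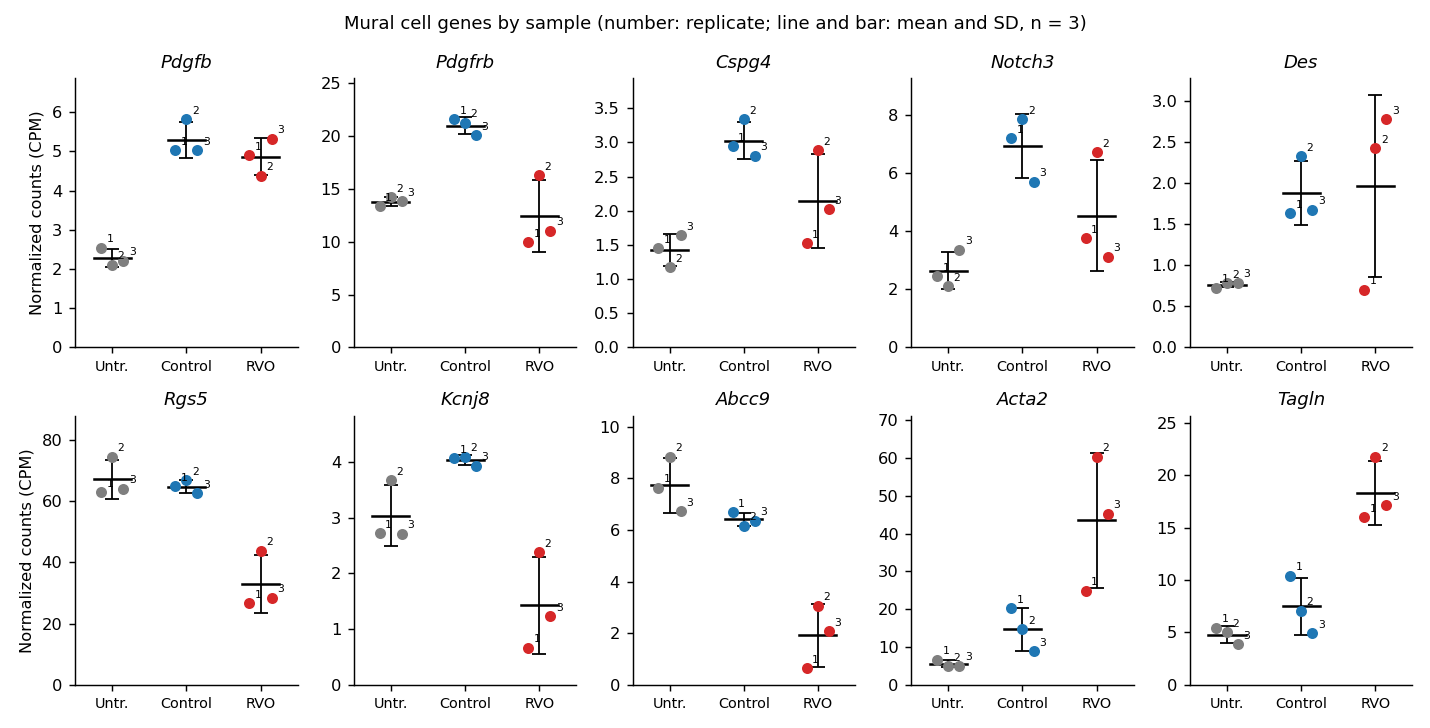
Normalised counts (CPM, linear axes from 0, a panel per gene) in the 9 samples, with numbered points for replicates of the untreated, control and RVO groups and lines and bars for their mean and SD (n = 3). Acta2 lies at 4.92 to 6.63 CPM in untreated and 24.9 to 60.3 CPM in RVO samples, whereas Abcc9 lies at 6.71 to 8.83 and 0.637 to 3.06 CPM.

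The ligand Pdgfb lies on chromosome 15 (GRCm38, 79995874 to 80014977, minus strand). It had 2.54, 2.11 and 2.21 CPM in untreated, 5.02, 5.81 and 5.02 CPM in control and 4.91, 4.37 and 5.32 CPM in RVO replicates 1, 2 and 3. Every lasered sample was above every untreated sample, and control and RVO samples overlapped. The log2 fold change against untreated eyes was 1.123 in RVO eyes (standard error, SE, 0.19, edgeR adjusted p = 0.000991), and control eyes had a value of 1.23 (SE 0.17, adjusted p = 4.85e-05). Between RVO and control eyes it was -0.11, with a 95% interval from -0.46 to 0.24. Pdgfb rested on 27 to 31 counts in each untreated sample.

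Its receptor Pdgfrb followed another course. It had 13.4, 14.2 and 13.9 CPM in untreated, 21.6, 21.3 and 20.1 CPM in control and 9.97, 16.3 and 11.04 CPM in RVO replicates 1, 2 and 3. All control samples were above all others, while RVO samples lay on both sides of the untreated ones. The receptor rose in control eyes with a log2 fold change of 0.62 (SE 0.09, adjusted p = 4.07e-05), and in RVO eyes the value was -0.12 (95% interval -0.55 to 0.31, adjusted p = 0.578), or -0.35 without RVO replicate 2 (adjusted p = 0.0212). RVO eyes were lower than control eyes by a log2 fold change of -0.75 (SE 0.18, adjusted p = 0.0188), and of -1.02 without RVO replicate 2 (adjusted p = 3.14e-05). Without RVO replicate 3 the value was -0.69 (edgeR adjusted p = 0.0818). Per kilobase, the ratio of ligand to receptor was 0.195 to 0.251 in untreated, 0.306 to 0.360 in control and 0.353 to 0.648 in RVO samples, with overlap of the latter groups through RVO replicate 2.

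Among the other PDGF genes, Pdgfa rose and Pdgfd fell in RVO eyes (1 of 4 in each direction, against 27.4% and 24.6% of all genes). Pdgfa, a ligand of the receptor PDGFRA, had 5.74 ± 0.043 CPM in untreated (SD, n = 3), 7.57 ± 0.525 in control and 14.9 ± 1.92 in RVO eyes, and it exceeded control eyes in RVO eyes by 0.98 on the log2 scale (edgeR adjusted p = 0.0086). Pdgfd, the second ligand of PDGFRB, had 9.01 ± 0.278, 5.35 ± 0.556 and 3.32 ± 1.66 CPM in the same groups. The receptor gene Pdgfra, which retinal astrocytes and fibroblasts express, had 17.0 ± 2.86, 12.7 ± 1.57 and 13.8 ± 1.80 CPM and passed no test at 0.01.

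Rgs5, a regulator of G-protein signalling that is among the most abundant RNAs of pericytes, lies on chromosome 1 (169655501 to 169695813, plus strand). It had 62.8, 74.5 and 64.0 CPM in untreated, 64.8, 66.8 and 62.6 CPM in control and 26.7, 43.7 and 28.4 CPM in RVO replicates 1, 2 and 3. Untreated and control samples overlapped, and all RVO samples lay below them. Rgs5 fell in RVO eyes with a log2 fold change of -0.996 against untreated eyes (SE 0.18, adjusted p = 0.00157). Against control eyes the value was -0.97 (SE 0.18, adjusted p = 0.0118), and -1.25 without RVO replicate 2 (adjusted p = 3.85e-06). Without RVO replicate 3 it was -0.89 (edgeR adjusted p = 0.061). In control eyes it was -0.034 (95% interval -0.18 to 0.12, adjusted p = 0.684). The sign in control eyes depended on the scaling: it was 0.14 by library size only and 0.31, past the threshold, with trends of GC content and length removed.

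Kcnj8, the pore of the ATP-sensitive channel, and Abcc9, its regulatory subunit, are neighbours on the minus strand of chromosome 6 (142564837 to 142571614 and 142587862 to 142702315), 16247 bases apart. Kcnj8 had 2.72, 3.67 and 2.71 CPM in untreated, 4.07, 4.09 and 3.93 CPM in control and 0.669, 2.38 and 1.23 CPM in RVO replicates 1, 2 and 3. Abcc9 had 7.63, 8.83 and 6.71 CPM in untreated, 6.69, 6.16 and 6.36 CPM in control and 0.637, 3.06 and 2.07 CPM in the same RVO replicates. For both genes every RVO sample lay below all others, with RVO replicate 1 lowest and RVO replicate 2 nearest to the other groups. Control and untreated samples did not overlap either, with Kcnj8 higher and Abcc9 lower in control eyes, but neither passed the test at 0.01 (log2 fold change 0.42, adjusted p = 0.0506, and -0.25, adjusted p = 0.118).

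Abcc9 fell in RVO eyes with a log2 fold change of -2.01 against untreated eyes (SE 0.45, adjusted p = 0.00445). This call was lost without RVO replicate 3 or any 1 of the untreated replicates, with values of -2.06, -2.02, -1.90 and -2.10 and adjusted p of 0.0148 to 0.0207. Kcnj8 had a log2 fold change of -1.09 (SE 0.42, adjusted p = 0.0483) and passed 0.01 without RVO replicate 2, at -1.67 (adjusted p = 0.000223). Without RVO replicate 3 the value was -0.99 (edgeR adjusted p = 0.128). Against control eyes the values were -1.52 for Kcnj8 (SE 0.39, adjusted p = 0.0232) and -1.77 for Abcc9 (SE 0.45, adjusted p = 0.0226). Without RVO replicate 2 they were -2.14 and -2.34 (adjusted p = 0.000167 and 0.000599). Without RVO replicate 3 they were -1.45 and -1.84 (edgeR adjusted p = 0.0932 and 0.0823). The ratio of Kcnj8 to Abcc9 CPM was 0.357 to 0.416 in untreated, 0.608 to 0.664 in control and 0.596 to 1.05 in RVO samples. In RVO replicate 1, Kcnj8 rested on 21 and Abcc9 on 20 counts.

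Of 8 further channel genes tested (9 listed), 6 fell in RVO eyes and the other 2 did not pass, whereas 2 rose and 1 fell in control eyes. Over all genes, 24.6% fell in RVO eyes, and 27.2% rose and 25.2% fell in control eyes. The potassium channel gene Kcnj2 had 16.4 ± 0.972 CPM in untreated, 10.03 ± 0.376 in control and 4.40 ± 2.20 in RVO eyes (log2 fold change in RVO against untreated eyes -1.88, edgeR adjusted p = 0.0011). The calcium channel gene Cacna1c had 16.3 ± 2.34, 14.5 ± 1.13 and 7.10 ± 1.62 CPM, and the cation channel gene Trpc6 had 3.26 ± 0.535, 2.15 ± 0.577 and 1.02 ± 0.517 CPM. The second pair of ATP-sensitive channel genes, which neurons and endocrine cells use, was lower too: Abcc8 had 13.8 ± 0.619, 15.4 ± 2.27 and 7.52 ± 1.57 CPM and fell (adjusted p = 0.00242), and Kcnj11 had 8.06 ± 0.664, 9.16 ± 0.447 and 6.06 ± 1.68 CPM and did not pass (adjusted p = 0.143). Retinal neurons express several of these channels. Between RVO and control eyes, 6 of the 8 were lower at an adjusted p under 0.05, as were 17.1% of all genes.

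Notch3, on chromosome 17 (32120820 to 32166852, minus strand), had 2.45, 2.11 and 3.36 CPM in untreated, 7.19, 7.83 and 5.69 CPM in control and 3.76, 6.71 and 3.12 CPM in RVO replicates 1, 2 and 3. Control samples lay above all untreated samples, and RVO samples overlapped both groups. It rose in control eyes with a log2 fold change of 1.39 (SE 0.20, adjusted p = 5.38e-05). In RVO eyes it was 0.80 (SE 0.33, adjusted p = 0.0614), and 0.43 without RVO replicate 2 (adjusted p = 0.113). Against control eyes it was -0.61 (adjusted p = 0.139), and -1.01 without RVO replicate 2 (adjusted p = 0.00182). Without RVO replicate 3 it was -0.41 (edgeR adjusted p = 0.344). An antisense gene, Gm17276, shares 488 bases of exon with Notch3 and had 2 to 16 counts per sample.

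Of 13 other genes of the Notch pathway, 6 rose and 2 fell in RVO eyes and 5 rose and 1 fell in control eyes. Over all genes, 27.4% rose and 24.6% fell in RVO eyes and 27.2% rose and 25.2% fell in control eyes. The receptors Notch4, of endothelial cells, and Notch1 were highest in RVO eyes, with 3.01 ± 0.752, 7.83 ± 1.37 and 29.3 ± 13.0 CPM and with 16.9 ± 2.23, 34.5 ± 3.92 and 64.0 ± 9.45 CPM in untreated, control and RVO eyes. The endothelial ligand Dll4 rose in both lasered groups, with 1.08 ± 0.0638, 2.41 ± 0.103 and 2.94 ± 0.663 CPM in untreated, control and RVO eyes. The ligand Jag1 fell in both, with 155 ± 2.05, 98.4 ± 9.75 and 87.8 ± 2.26 CPM. Between RVO and control eyes neither ligand passed (edgeR adjusted p = 0.302 for Dll4 and 0.163 for Jag1). Of the target genes, Hes1 fell in RVO against untreated eyes by 0.41 on the log2 scale (edgeR adjusted p = 0.00511). In the same comparison Hey1 and Heyl had log2 fold changes of -0.12 and -0.48 (adjusted p = 0.565 and 0.333). Other targets, named after their values were seen, were Hey2, which rose by 0.83 (adjusted p = 0.000777), and Nrarp at 0.056 (adjusted p = 0.868).

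Cspg4 encodes the proteoglycan NG2 of pericytes and of glial precursor cells, and lies on chromosome 9 (56865033 to 56899870, plus strand). It had 1.45, 1.17 and 1.64 CPM in untreated, 2.94, 3.33 and 2.80 CPM in control and 1.53, 2.89 and 2.02 CPM in RVO replicates 1, 2 and 3. Control samples lay above all untreated samples, with RVO samples between and overlapping both. Cspg4 rose in control eyes, at a log2 fold change of 1.10 (SE 0.22, adjusted p = 0.000736), and had a value of 0.61 in RVO eyes (SE 0.30, adjusted p = 0.107), which was 0.35 without RVO replicate 2 (adjusted p = 0.28). Between RVO and control eyes it was -0.50 (adjusted p = 0.153), with -0.80 without RVO replicate 2 (adjusted p = 0.0129) and -0.31 without RVO replicate 1 (adjusted p = 0.371).

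Acta2, the smooth muscle actin gene, whose promoter held the CArG-like matches, lies on chromosome 19 (34241090 to 34255590, minus strand). It had 6.63, 4.92 and 5.07 CPM in untreated, 20.3, 14.8 and 8.91 CPM in control and 24.9, 60.3 and 45.2 CPM in RVO replicates 1, 2 and 3. The 3 groups did not overlap, and the spread was wide in both lasered groups. Acta2 rose in RVO eyes with a log2 fold change of 3.01 (SE 0.33, adjusted p = 0.000122), and the value for control eyes was 1.43 (SE 0.26, adjusted p = 0.000349). Between RVO and control eyes it was 1.57 (2.96-fold, SE 0.38, adjusted p = 0.0196), and 1.24 without RVO replicate 2 (adjusted p = 0.00909). Without RVO replicate 3 it was 1.53 (edgeR adjusted p = 0.0754). Within both lasered groups the samples had the same order for Acta2 as for the lens markers, control 1 over 2 over 3 and RVO 2 over 3 over 1. Tagln and Pdgfrb had this order too, and the others of the 10 genes did not have it in both groups. Within the RVO group alone, Rgs5, Cspg4, Kcnj8 and Abcc9 had it as well. So had the summed markers of endothelial, pigment and Mueller cells, given below, so the RVO order is not particular to lens markers. How many of all genes had the order in both groups was not counted. RVO replicate 1, with fewer lens counts than any control sample (87.4 CPM), had more Acta2 than each of them. The part of lens tissue in the values of these genes was not tested. Paralogs share much of the coding sequence, and Actg2 had at most 3 counts, Acta1 1.53 to 2.26 CPM and Actb 310 to 866 CPM in group means.

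Tagln, which encodes the actin-binding protein transgelin (chromosome 9, 45929619 to 45936058, minus strand), had 5.45, 5.00 and 3.86 CPM in untreated, 10.4, 7.07 and 4.94 CPM in control and 16.0, 21.7 and 17.1 CPM in RVO replicates 1, 2 and 3. RVO samples lay above all others, and control replicate 3 lay among the untreated samples. Within both lasered groups the order was that of the lens markers, as for Acta2, and the part of lens tissue was not tested. Tagln rose in RVO eyes with a log2 fold change of 1.98 (SE 0.18, adjusted p = 5.84e-05). Against control eyes it was 1.29 (SE 0.26, adjusted p = 0.0134), and 1.14 without RVO replicate 2 (adjusted p = 0.00332). Without RVO replicate 3 it was 1.33 (edgeR adjusted p = 0.0614). In control eyes it was 0.67 (adjusted p = 0.0284), with 0.91 without control replicate 3 (adjusted p = 0.00134) and 0.36 without control replicate 1 (adjusted p = 0.142). Its exons overlap those of Pcsk7 by 108 bases and of the antisense gene Gm48529 by 1241 bases, on the opposite strand. Whether counting used the strand is not stated, so part of its counts may belong to these genes. Pcsk7 had 28.9, 33.2 and 40.0 CPM in the means of untreated, control and RVO eyes.

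Des, the intermediate filament gene of muscle and pericytes (chromosome 1, 75360329 to 75368579, plus strand), was among the least abundant. It had 0.727, 0.781 and 0.786 CPM in untreated, 1.63, 2.32 and 1.67 CPM in control and 0.701, 2.42 and 2.77 CPM in RVO replicates 1, 2 and 3. Control samples lay above all untreated samples, and RVO replicate 1 lay below them while the other RVO samples lay above all control samples. Des rose in control eyes, at a log2 fold change of 1.29 (SE 0.28, adjusted p = 0.00138). In RVO eyes it was 1.35 (SE 0.54, adjusted p = 0.0535), and it passed without RVO replicate 1, at 1.79 (adjusted p = 0.000667). It rested on 8 to 11 counts in untreated samples. Between RVO and control eyes it was 0.044, with a 95% interval from -1.04 to 1.13, and 0.46 without RVO replicate 1 (adjusted p = 0.201).

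**Figure D2:**
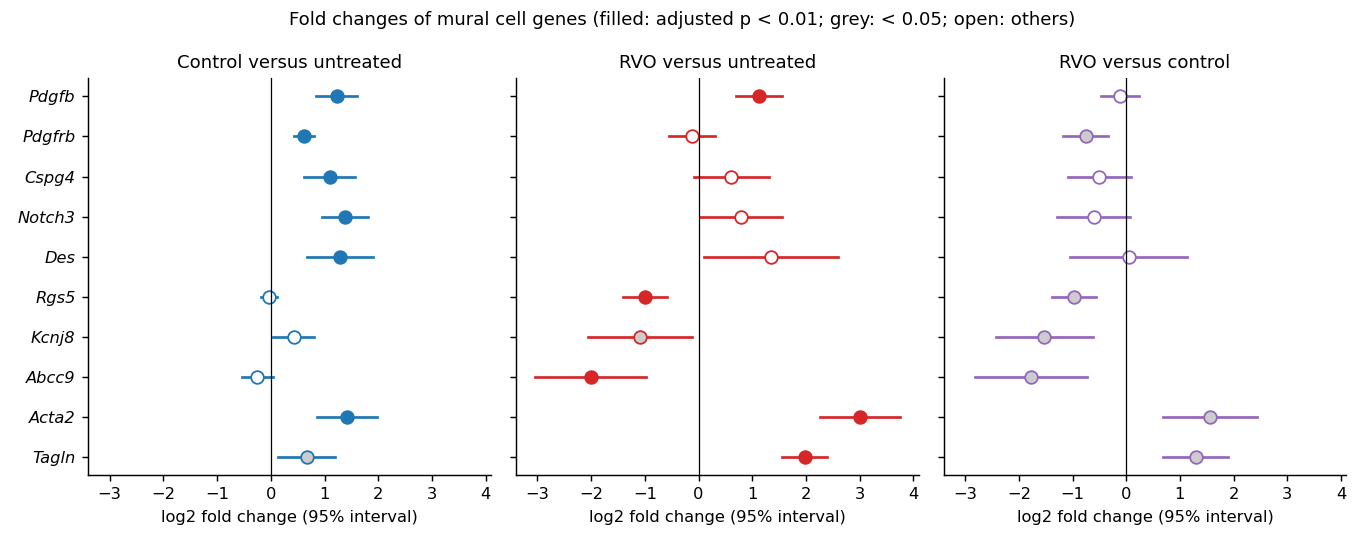
Log2 fold changes of the 10 genes in the 3 comparisons, with 95% intervals from edgeR's quasi-likelihood fit filled points for an adjusted p under 0.01, grey points for one under 0.05 and open points for the others. Acta2 and Tagln lie above 0 and Rgs5 and Abcc9 below 0 in RVO against untreated eyes, at 3.01, 1.98, -0.996 and -2.01.

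Of 23 further contractile genes, 20 were tested, and 9 rose and 3 fell in RVO eyes and 6 rose and 3 fell in control eyes. Over all genes, 27.4% rose and 24.6% fell in RVO eyes and 27.2% rose and 25.2% fell in control eyes. Flna, which crosslinks actin in many cell types, had 79.9 ± 1.69, 158 ± 8.89 and 322 ± 51.7 CPM in untreated, control and RVO eyes, and smoothelin (Smtn) had 6.24 ± 0.530, 9.47 ± 1.89 and 18.9 ± 1.11 CPM. Sncg, a gene of smooth muscle and, in the retina, mainly of ganglion cells, fell from 131 ± 11.8 to 93.9 ± 5.23 and 33.2 ± 18.2 CPM in these groups. The regulator Srf rose from 20.5 ± 1.78 to 35.5 ± 1.77 CPM in control and 51.3 ± 5.64 CPM in RVO eyes. Myh11, the smooth muscle myosin, did not pass and had 2.99 ± 1.08, 2.31 ± 1.22 and 4.96 ± 4.91 CPM (RVO against untreated eyes, log2 fold change 0.75, edgeR adjusted p = 0.343), with 10.6 CPM in RVO replicate 2 and 1.88 and 2.37 CPM in the other RVO replicates. The coactivator Myocd had 0.630 ± 0.0799, 0.540 ± 0.119 and 1.17 ± 0.496 CPM in untreated, control and RVO eyes (RVO against untreated eyes, edgeR adjusted p = 0.065). Cnn1, with 1 to 6 counts per sample, was not tested. Within both lasered groups Myh11 had the order of the lens markers, and Srf and Myocd did not.

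Per length, Rgs5 was by far the most abundant of the 10 RNAs in untreated eyes, at 14.8 ± 1.41 CPM per kilobase, followed by Acta2 at 2.52 ± 0.431, Pdgfrb at 2.52 ± 0.0799 and Tagln at 2.40 ± 0.413, which did not differ beyond their spread. Kcnj8 at 1.19 ± 0.216, Abcc9 at 0.923 ± 0.127, Pdgfb at 0.550 ± 0.0543, Notch3 at 0.326 ± 0.0797, Des at 0.204 ± 0.00879 and Cspg4 at 0.119 ± 0.0199 CPM per kilobase followed without overlap. In control eyes Rgs5 still led, at 14.2 ± 0.462, before Acta2 at 6.67 ± 2.59, and Pdgfrb overlapped with Tagln and Notch3 with Abcc9.

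In RVO eyes the order was different at the top. Acta2 led at 19.8 ± 8.09 CPM per kilobase, followed by Tagln at 9.20 ± 1.53 and Rgs5 at 7.25 ± 2.06, the last 2 overlapping, and then by Pdgfrb at 2.27 ± 0.619 and Pdgfb at 1.17 ± 0.114. The remaining neighbours in the order, Notch3, Kcnj8, Des, Abcc9 and Cspg4, overlapped each other in turn. The ratio of Acta2 to Rgs5 per kilobase was 0.218, 0.137 and 0.164 in untreated, 0.649, 0.457 and 0.295 in control and 1.93, 2.85 and 3.29 in RVO replicates 1, 2 and 3. This ratio, which does not depend on library scaling, did not overlap between the 3 groups. Acta2 alone did not overlap between them either, and Rgs5 was lowest in RVO samples. The ratio is therefore a description of these values and not a separate result.

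**Figure D3:**
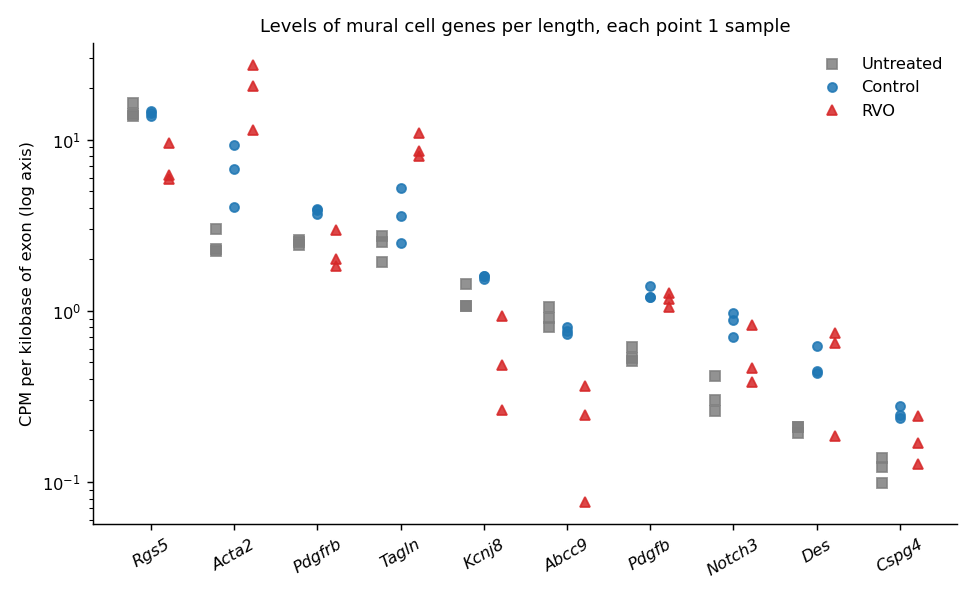
Levels of the 10 genes in CPM per kilobase of exon (log axis) in untreated, control and RVO eyes, each point 1 sample. Rgs5 leads in untreated eyes, with a mean of 14.8, and Acta2 in RVO eyes, with a mean of 19.8 CPM per kilobase.

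Other markers of pericytes moved in both directions, as did all genes tested. Of 22 listed, 18 could be tested for RVO against untreated eyes, and 5 rose and 3 fell. Over all genes, 27.4% rose and 24.6% fell. Ndufa4l2, a mitochondrial gene of pericytes that hypoxia induces in many cells, had 1.80 ± 0.622, 3.40 ± 0.793 and 19.0 ± 6.37 CPM in untreated, control and RVO eyes. The sphingosine phosphate receptor S1pr3 had 25.9 ± 2.54, 90.3 ± 18.2 and 113 ± 15.8 CPM. The transcription factor Ebf1, which retinal neurons express as well, fell from 52.0 ± 2.67 to 24.2 ± 1.17 and 10.7 ± 4.76 CPM. In control eyes, 8 of 19 rose and 4 fell, where 27.2% and 25.2% of all genes did. Between RVO and control eyes, 2 were higher and 6 lower at an adjusted p under 0.05, against 17.5% and 17.1% of all genes.

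Markers of endothelial cells, on which mural cells sit, changed in the same samples. Their summed level over 14 genes was 279 to 289 CPM in untreated, 458 to 517 CPM in control and 264, 414 and 325 CPM in RVO replicates 1, 2 and 3. Pdgfrb had this order of RVO replicates, and so had Rgs5, Cspg4, Acta2, Tagln, Kcnj8, Abcc9 and the lens, pigment cell and Mueller cell sums. Most of the endothelial sum came from Kdr and Flt1. Their means were 128, 254 and 148 CPM and 97.7, 111 and 97.7 CPM in untreated, control and RVO eyes. In control eyes 10 of 14 rose, and in RVO eyes 4 of 14 did, against 27.2% and 27.4% of all genes. Egfl7 had 5.33 ± 0.118, 11.4 ± 0.363 and 16.1 ± 2.06 CPM, Cdh5 had 3.67 ± 0.427, 9.70 ± 0.491 and 10.2 ± 0.424 CPM and Tie1 had 1.92 ± 0.262, 7.18 ± 0.182 and 3.87 ± 0.752 CPM in untreated, control and RVO eyes. At an adjusted p under 0.05, 1 was higher and 5 were lower in RVO than in control eyes. Over all genes, 17.5% were higher and 17.1% lower.

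Several of the 10 genes are also expressed outside mural cells, and marker levels of such cells are given here. Sums over 10 fibroblast and meningeal genes were 182 to 203 CPM in untreated, 208 to 233 CPM in control and 220 to 290 CPM in RVO samples, and 5 of 9 tested rose in RVO eyes. Those over 9 monocyte and macrophage genes were 48.3 to 68.8, 80.6 to 98.7 and 146 to 165 CPM, with 6 of 9 higher in each lasered group against untreated eyes. The 6 platelet genes, from a cell that carries PDGF, summed to 6.17 to 7.64, 15.7 to 19.0 and 19.0 to 22.5 CPM. Pigment cell markers (10 genes) summed to 896 to 966, 760 to 830 and 738 to 1219 CPM, with the highest value in RVO replicate 2, and skeletal muscle markers (12 genes) to 14.2 to 15.8, 12.1 to 13.7 and 9.91 to 17.5 CPM, of which 1 of 7 tested fell in RVO eyes and the others did not pass. Over all genes, 27.4% rose and 24.6% fell in RVO eyes, and 27.2% rose in control eyes. The part of these cells in the values of the 10 genes was not tested.

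Markers of rods, the most numerous cells of the mouse retina, summed to 92819 to 95365 CPM in untreated, 61936 to 75722 CPM in control and 51150 to 55485 CPM in RVO samples. The part of this difference in the values of the 10 genes was not tested. Mueller cell and astrocyte markers (10 genes) summed to 5040 to 5282, 4155 to 4603 and 3161 to 3988 CPM.

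**Figure D4:**
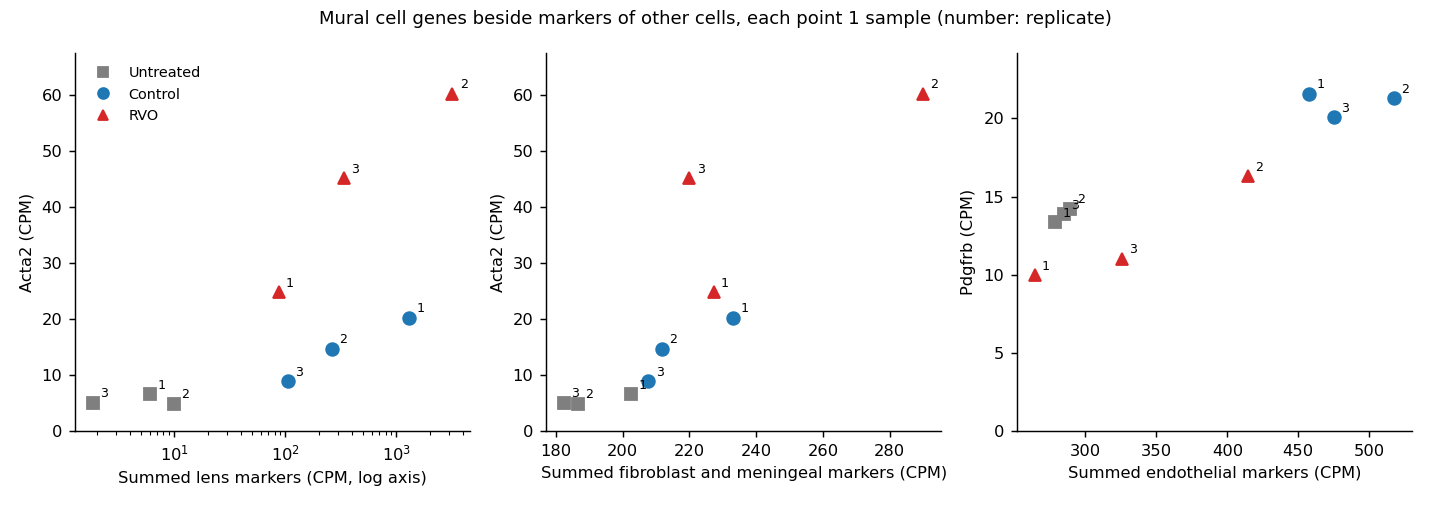
Acta2 against the summed lens markers (log axis) and the summed fibroblast and meningeal markers, and Pdgfrb against the summed endothelial markers, all in CPM, with a numbered point for each replicate of untreated, control and RVO eyes. RVO replicate 2 has the highest lens sum (3206 CPM) and the most Acta2 (60.3 CPM), and control samples have the highest endothelial sums (458 to 517 CPM) and the most Pdgfrb (20.1 to 21.6 CPM).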

How the data were processed

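The authors sequenced poly(A) RNA of 9 pools of retinas from a stranded library (single reads, 50 cycles), mapped reads with STAR 2.5.2b, counted them per gene with featureCounts (Subread 1.5.1) on the Gencode annotation of GRCm38 and deposited raw counts without normalization. Strand and multi-mapping settings of the counting are not stated. All sample columns were used (0 left out), and 92 spike-in rows with 0 counts were dropped. Samples were grouped by their labels. Where nothing else is said, n is 3 pools, and p-values measure the spread between pools.

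Each pair of groups was fitted on its own with edgeR 4.0.16 (R 4.3.3), using filterByExpr, TMM scaling and the quasi-likelihood test, with Benjamini-Hochberg adjustment over all genes that passed the filter and a threshold of 0.01. CPM used TMM factors of all 9 samples. Biological coefficients of variation were 13.8% (RVO, untreated), 7.49% (control, untreated) and 14.4% (RVO, control). Replicates differed by more than sampling noise (chi-square per degree of freedom 3.15 to 54.1).

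Tests were checked on simulated counts. Of genes changed 2-fold and 4-fold, 59.1% and 90.8% were called for RVO against untreated samples (16116 genes). The shares were 87.9% and 99.1% for control against untreated samples (15876) and 56.9% and 90.1% for RVO against control samples (16681). In each simulation 197 to 200 genes were changed, fewer than were called in the data, and no pool was made to stand apart. The shares may differ in the data for this reason.

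The 10 genes, the lists of other genes and the tests were chosen with earlier results of these data known. From each list, at most the 3 genes called in RVO against untreated eyes with the largest fold change were named, together with direct ligands, receptors, partner subunits and regulators of the 10 genes. Alternatives were other normalizations, filters and thresholds, DESeq2 1.42.0, a fit of all 9 samples, a replicate block and each sample left out in turn. Removal of GC and length trends was chosen after seeing the data. Coordinates are from GENCODE vM21 on GRCm38 and promoter sequences from RefSeq.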

Additional observations from a re-analysis of the deposited data

How the results depend on the processing

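Of 5 genes called between RVO and untreated eyes and 6 between control and untreated eyes, 3 and 2 were still called after removal of each sample's GC and length trends, which brought the count to 3 and, with Rgs5 added, 3. In the whole table, 7165 of 16380 and 6516 of 16066 genes were then called, against 8529 and 8416 in the fits as reported. Pdgfb and Rgs5 then missed 0.01 in RVO eyes (log2 fold change 0.48 and -0.56, edgeR adjusted p = 0.0738 and 0.0116), and Pdgfrb, Pdgfb, Cspg4 and Des in control eyes (0.21, 0.55, 0.57 and 0.77, adjusted p = 0.0459, 0.0211, 0.042 and 0.0363). A fit of all 9 samples called 3 in control eyes, and 37.4% of all genes tested. Between RVO and control eyes, 0 genes became 6 at an adjusted p under 0.05, with DESeq2, in the fit of all 9 samples and without a filter, and 1 with GC and length trends removed. These calls covered 563 genes of the whole table in the fit as reported, 4037 with DESeq2, 3853 in the fit of all 9 samples, 3309 without a filter and 1550 with trends removed. Leaving out 1 sample gave 4 to 6 genes for RVO against untreated, 6 to 7 for control against untreated and 0 to 7 for RVO against control eyes, where the 7 came without RVO replicate 2. Of all genes tested, the same fits called 35.1% to 64.4%, 41.6% to 48.7% and 0% to 36.4%. Whether same-numbered RVO and control pools hold the same mice is not stated. Their deviations from the group means had r of -0.17, -0.18 and 0.087, and pools of different number had r of -0.27 to 0.27. With 3 pools per group these values cannot decide on a pairing. The fits as reported did not use the number and treated the pools as independent. A replicate block gave 5, 7 and 0 genes in the 3 comparisons, and 50.2%, 52.3% and 0% of all genes tested.

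Directions changed only for values that had not passed: Des between RVO and control eyes (-0.067 with the replicate block, -0.30 to 0.46 with 1 sample left out), Pdgfrb between RVO and untreated eyes (0.086 by library size only, -0.35 to 0.029 with 1 sample left out) and Rgs5 between control and untreated eyes (0.14 by library size only, 0.31 with trends removed, -0.092 to 0.033 with 1 sample left out). With library size as the only scaling, the median log2 fold change of the whole table was 0.22 (RVO) and 0.19 (control against untreated eyes), and 5967 of 8708 and 5902 of 8386 calls were then higher, against 4492 of 8529 and 4371 of 8416. The cause was not tested in any of these cases. Counts of 8 to 31 in untreated samples limit the precision for Des, Pdgfb and Cspg4.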

Other observations

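As a description with no test, the genes whose values over the 9 samples were most like those of each of the 10 genes were found by the root mean square difference of log2 CPM, centred on each gene's mean. They come from cells of several kinds. For Acta2 they were Gpnmb, a gene of macrophages and pigment cells, at 0.24 and the bone morphogenetic protein antagonist Grem1 at 0.342. For Tagln they were the collagen receptor gene Ddr2 at 0.182 and the collagen gene Col1a1 at 0.197. For Abcc9 they were the neuronal transcription factor gene Isl1 and the calcium channel subunit gene Cacna2d3, both at 0.194, and for Kcnj8 the nearest was Syt2, a synaptic gene, at 0.15. Rgs5 had Kcnab3 at 0.0585 and Adarb1 at 0.0674, and Pdgfrb had Lrtm2 at 0.0593 and Mgarp at 0.0647. For Notch3 the nearest were Cd72, a B cell gene, at 0.212 and the endothelial gene Ecscr at 0.217. For Pdgfb they were Eml2 at 0.107 and Gstp1 at 0.118, for Cspg4 the nearest was Tmem132e at 0.113, and for Des they were Upk3b at 0.277 and the endothelial gene Mmrn2 at 0.309. All points share the libraries, their depth and their scaling.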
